A study of Rattus norvegicus with 151 samples.

Results

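The genes described here are 6 transcripts tied to the aryl hydrocarbon receptor, also called AhR or the dioxin receptor: Cyp1a1, Cyp1a2, Cyp1b1, Tiparp, Aldh3a1 and Ahr itself. They were chosen by name, by taking every probe set annotated to one of these genes and, for each gene and tissue, keeping the probe set with the highest mean. The 6 genes had 8 probe sets, among 14218 named genes and 31099 probe sets measured on the array. The question was whether 3 chemicals from a spill engaged this receptor in rat liver or kidney.

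Male Harlan Sprague-Dawley rats of 6 to 8 weeks received 5 daily gavage doses, and liver and kidney RNA was read on expression arrays, with 1 array per tissue sample. The chemicals were MCHM (4-methylcyclohexanemethanol) and crude MCHM (the technical mixture, mostly MCHM), each at 6 doses (0.1, 1 and 10 mg/kg, then 100, 300 and 500 mg/kg), and PPH (propylene glycol phenyl ether) at 1, 10, 100, 500 and 1000 mg/kg. Each chemical had its own corn oil vehicle group, and every rat, dosed or vehicle, received gavage. The 150 arrays used, 81 of liver and 69 of kidney, fell into 40 groups of 2 to 5. Each highest-dose group had 4 arrays, except that crude MCHM had 3 kidneys. For MCHM, crude MCHM and PPH there were 5, 4 and 5 vehicle livers and 5, 3 and 5 vehicle kidneys. No group received a known AhR ligand, so the size of a full response on these arrays was not measured. RNA came from pieces of whole organ, in which fewer cells of a type and less RNA per cell cannot be told apart.

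AhR rests in the cytoplasm in a complex with the chaperone HSP90 and its helpers. On binding a planar aromatic ligand such as dioxin it moves to the nucleus, pairs with ARNT and binds DNA at xenobiotic (dioxin) response elements. Cyp1a1 is the classic readout, nearly silent in resting rodent liver and strongly induced by ligands; Cyp1a2 is made by unexposed hepatocytes and is induced further; Cyp1b1, Tiparp and Aldh3a1 are further targets, and Tiparp encodes an ADP-ribosyltransferase that restrains the receptor.

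The receptor reads short DNA letters in front of its targets, and the promoter windows are shown so that the presence of these letters can be set beside the transcript values. RefSeq promoter sequences on the GRCr8 assembly, from 250 bases before to 50 bases after the gene start, were available for 4 of the 6 genes (not for Cyp1a1 and Aldh3a1). Both strands were searched for the core letters GCGTG, which read CACGC on the other strand, and for the longer TNGCGTG, which contains the core. In the sequences below capitals mark the core on either strand.
Cyp1b1, chr6:21094315-21094614, plus strand: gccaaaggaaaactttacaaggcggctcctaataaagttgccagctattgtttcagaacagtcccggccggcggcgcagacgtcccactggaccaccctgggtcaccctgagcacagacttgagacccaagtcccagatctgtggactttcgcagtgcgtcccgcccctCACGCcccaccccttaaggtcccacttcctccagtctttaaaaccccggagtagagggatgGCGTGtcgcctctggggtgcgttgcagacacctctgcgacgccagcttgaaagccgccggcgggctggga
Tiparp, chr2:152063519-152063818, plus strand: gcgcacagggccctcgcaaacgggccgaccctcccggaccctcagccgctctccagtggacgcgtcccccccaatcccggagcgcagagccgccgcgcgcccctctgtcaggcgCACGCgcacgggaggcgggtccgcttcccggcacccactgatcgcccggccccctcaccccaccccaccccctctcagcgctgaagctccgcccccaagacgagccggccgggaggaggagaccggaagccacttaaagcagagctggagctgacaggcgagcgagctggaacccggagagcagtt
Cyp1a2, chr8:66978100-66978399, minus strand: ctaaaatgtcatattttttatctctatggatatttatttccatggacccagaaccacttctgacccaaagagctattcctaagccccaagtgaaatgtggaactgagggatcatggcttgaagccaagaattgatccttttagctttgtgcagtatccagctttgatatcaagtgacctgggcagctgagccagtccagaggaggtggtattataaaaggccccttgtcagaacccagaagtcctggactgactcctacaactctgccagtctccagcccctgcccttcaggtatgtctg
The Cyp1b1 window held 2 cores, 1 starting at base -20 on the gene's strand and 1 at base -81 on the other, counted from the gene start. The Tiparp window held 1, at base -136 on the other strand, and the Cyp1a2 window held 0, as did that of Ahr. Of 33469 rat promoter windows of the same length, 29.7% held the core, 10.2% held 2 or more and 4.89% held the longer letters. Of the 4 windows, 1 held the longer letters, that of Cyp1b1, starting at base -22 and including its core at -20. A match is a run of letters and not a measured binding site. Sequence outside these windows was not searched, so a window with 0 cores does not show that a gene lacks them.

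Values are log2 intensities, in which a difference of 1 is a doubling. A gene was tested where it lay above an intensity of 4.69 in liver or 4.66 in kidney, the level under which 40% of that organ's values fell, on at least 3 arrays of a fit. A call means a Benjamini-Hochberg adjusted p under 0.05 in limma over all genes tested.

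In vehicle rats the levels of the genes differed between the organs. Cyp1a2, which metabolises caffeine and aromatic amines, was the brightest, at 12.63 ± 0.08 in liver (SD, n = 14) and 4.34 ± 0.42 in kidney (SD, n = 13), a measured liver-minus-kidney difference of 8.30 ± 0.10 (SE; limma adjusted p = 3.78e-32). Kidney Cyp1a2 was above the threshold on only 6 of 69 arrays, so this difference is a lower bound. Cyp1a1 went the other way, at 5.10 ± 0.35 in liver and 7.47 ± 1.35 in kidney (SD, n = 14 and 13), a difference of -2.35 ± 0.35 (SE; limma adjusted p = 6.9e-07). Liver Cyp1a1 was dim and close to the filter threshold, and kidney Cyp1a1 ran up to 9.38 in vehicle rats that had received corn oil only.

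**Figure D1:**
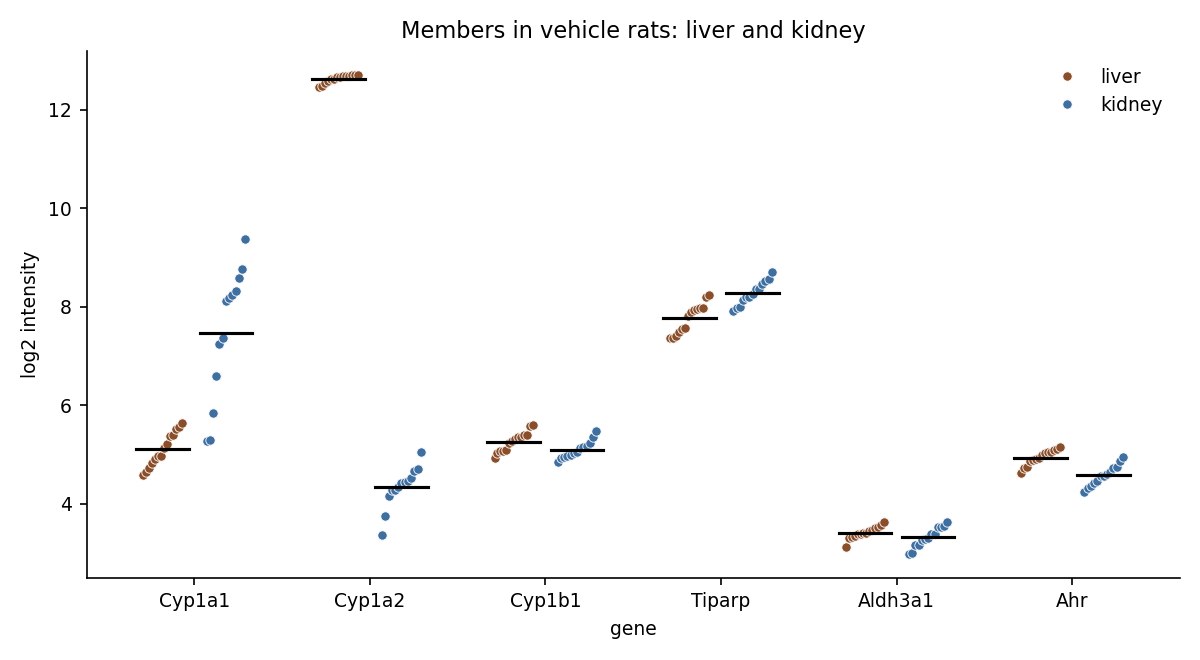
Log2 intensity of the 6 genes on each vehicle array of liver (left of each pair, n = 14) and kidney (right, n = 13), on 1 probe set per gene, with bars at the means. Cyp1a2 was far brighter in liver and Cyp1a1 brighter in kidney, where its arrays spread from 5.28 to 9.38.

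Tiparp was lower in liver than in kidney by 0.51 ± 0.09 log2 units (7.77 ± 0.30 and 8.28 ± 0.24, SD). On its probe set shared by both tissues Ahr was higher in liver by 0.36 ± 0.07 (4.94 ± 0.16 and 4.57 ± 0.21, SD), but the kidney mean lay under the threshold, which 27 of 69 kidneys exceeded, so the size of this difference is uncertain. Cyp1b1, which hydroxylates oestrogens and polycyclic hydrocarbons, differed by 0.16 ± 0.07 (limma adjusted p = 0.0484), and this call was lost in 18 of the 27 fits that left out 1 array. Aldh3a1, an aldehyde dehydrogenase strongly induced by dioxin in rat liver, had means of 3.41 ± 0.13 in liver and 3.32 ± 0.20 in kidney and was above the threshold on 0 of 81 liver and 0 of 69 kidney arrays. It was therefore not tested at any dose. With 5 members tested, 5 were called, where 84.4% of all genes were called in this comparison. With the rat as a replicate block 4 of 5 were called, without Cyp1b1 (limma adjusted p = 0.0596).

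No member was called at any dose of any chemical. In liver, limma called 0 of 85 tests of a member at a dose, where it called 0.24% of all gene and dose tests, and 4 had an unadjusted p under 0.05. In kidney it called 0 of 74, where 0.121% of all were called, and 5 had an unadjusted p under 0.05. Over both tissues, where 0.181% of dose tests and 1.22% of trend tests were called, 5.66% of the member tests, against 7.83% of all gene tests, had an unadjusted p under 0.05 (8.88% of all in liver and 6.76% in kidney). The dose trends gave 0 of 15 calls in liver (1.87% of all genes called, 1 member with an unadjusted p under 0.05) and 0 of 13 in kidney (0.569%, 1 such member), and an unadjusted p under 0.05 was reached by 15.5% of all genes in liver, 10.4% in kidney and 13% over both.

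The same arrays registered other changes. At the highest doses limma called 0.512% of genes in liver for MCHM, 0.675% for crude MCHM and 1.75% for PPH, and in kidney 0.0177% for MCHM, 0% for crude MCHM and 2.03% for PPH. The next doses down in liver gave 0.0265% for MCHM, 1.01% for crude MCHM and 0.0882% for PPH, and 10 mg/kg PPH gave 0.00882%. The trends gave 2.38%, 1.91% and 1.32% of genes in liver and 0.124%, 0% and 1.58% in kidney, in the same order of chemicals. The kidney crude MCHM comparison, with 3 arrays a side and no call among 11216 genes, had 1406 genes with an unadjusted p under 0.05.

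Cyp1a1 in liver lay low at every dose. At 500 mg/kg MCHM the 4 livers read 5.71, 5.55, 5.59 and 5.33, against 5.38, 5.51, 5.37, 4.57 and 4.98 in the vehicle livers. The groups overlapped, and the difference of 0.38 (95% interval -0.03 to 0.80) had a limma adjusted p of 0.419. The livers at 500 mg/kg crude MCHM read 5.35, 5.24, 5.44 and 4.85, against 5.13, 4.64, 4.82 and 4.98 with vehicle.

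These crude MCHM livers also overlapped their vehicle group, with a difference of 0.33 (-0.03 to 0.68; limma adjusted p = 0.428). At 1000 mg/kg PPH the livers read 5.32, 5.22, 6.35 and 5.01, against 4.90, 4.73, 5.56, 5.21 and 5.64. A single PPH liver was the brightest of all 81, and the other 3 lay inside the vehicle range, so that the difference was 0.27 (-0.21 to 0.74). Over all 17 dose groups the highest upper bound of a 95% interval for liver Cyp1a1 corresponded to a 1.74-fold rise.

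Cyp1a1 in kidney varied more between rats than any other member. Its 69 arrays ran from 4.94 to 10.74 (median 7.72), a 55.6-fold range, and 11 of the 16 groups with 3 or more arrays held arrays more than 2 log2 units apart. Its residual SD within groups was 1.397, 1.19 and 1.23 in the MCHM, crude MCHM and PPH sets, where the median gene had 0.14, 0.15 and 0.14, and it ranked 13, 19 and 15 from the top among 11277, 11216 and 11264 genes tested. The vehicle kidneys alone read 8.58, 7.23, 8.24, 5.28 and 8.19 in the MCHM set, 8.33, 5.83 and 7.36 in the crude MCHM set and 8.76, 5.29, 8.12, 6.59 and 9.38 in the PPH set.

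**Figure D2:**
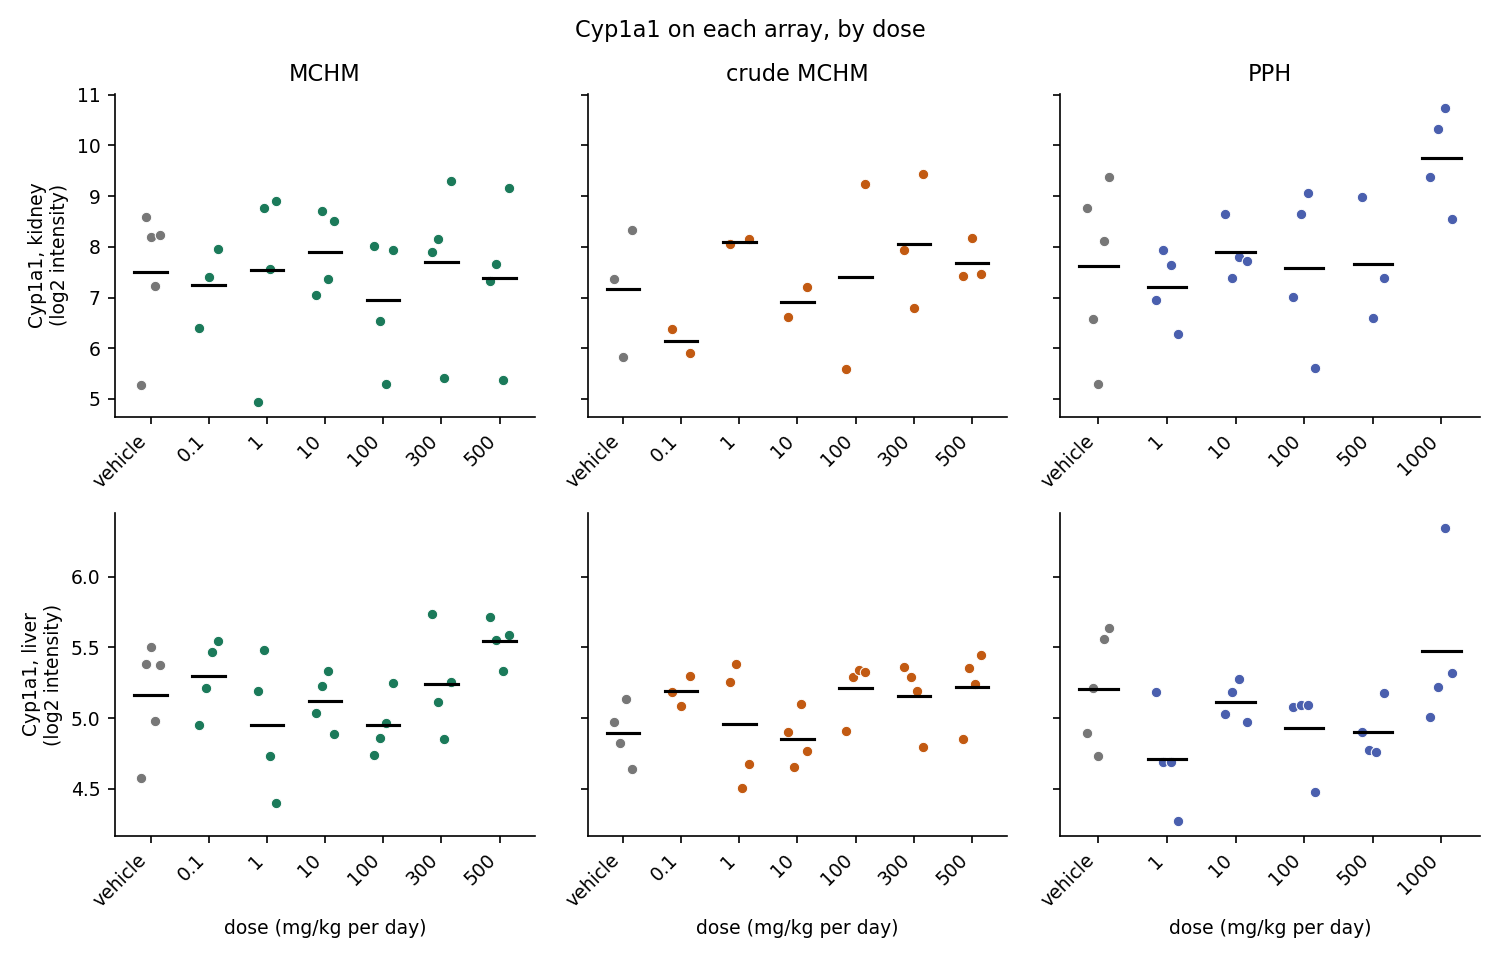
Log2 intensity of Cyp1a1 on each array by daily dose (vehicle in grey, at the left of each panel), in kidney (top) and liver (bottom), with bars at group means. Kidney values were more than 2 log2 units apart in 11 of the 16 groups with 3 or more arrays, and the 4 kidneys at 1000 mg/kg PPH, between 8.54 and 10.74, were the highest group.

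The highest kidney group was 1000 mg/kg PPH, whose 4 arrays read 8.54, 10.74, 9.38 and 10.33, against 5.29 to 9.38 with vehicle. Of the 4 dosed kidneys, 2 lay well above every vehicle kidney, 1 was level with the highest vehicle kidney and 1 lay inside the vehicle range. The difference was 2.12 log2 units (95% interval 0.56 to 3.68), a limma adjusted p of 0.16 that ranged from 0.0673 to 0.388 when each array of the set was left out in turn, and an exact two-sided permutation p of 0.0635 (n = 4 and 5). The trend over PPH doses was 0.33 per dose step (limma adjusted p = 0.261).

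Below that dose there was no ordered rise: the kidneys of the PPH set averaged 7.63 with vehicle, then 7.21, 7.89, 7.58 and 7.65 at 1, 10, 100 and 500 mg/kg. Kidney Cyp1a1 at 500 mg/kg MCHM read 7.32, 7.67, 9.17 and 5.37, with 1 kidney above its vehicle range of 5.28 to 8.58 and the other 3 inside it. With crude MCHM at 500 mg/kg it read 8.16, 7.46 and 7.43, inside the vehicle range. These differences were -0.12 (95% interval -1.92 to 1.67) and 0.51 (-1.29 to 2.32), wide enough to hold several-fold changes either way.

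The kidney transcripts most like Cyp1a1 over the 69 arrays, after the mean of each chemical set was removed, were Slc22a7 (r = 0.81), which encodes an organic anion transporter, Rarres1 (r = 0.81), a retinoid-responsive gene, and Slc22a13 (r = 0.80), another organic anion transporter. Within single sets these r lay between 0.74 and 0.87, and the median r of 11500 genes with Cyp1a1 was -0.04. Dose differences were left in these r, which are descriptions. At 1000 mg/kg PPH Slc22a7 averaged 7.24 ± 0.40, against 6.59 ± 0.94 with vehicle, Rarres1 7.88 ± 0.15 against 7.09 ± 0.84, and Slc22a13 5.91 ± 0.38 against 5.12 ± 1.03 (SD, n = 4 and 5).

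**Figure D3:**
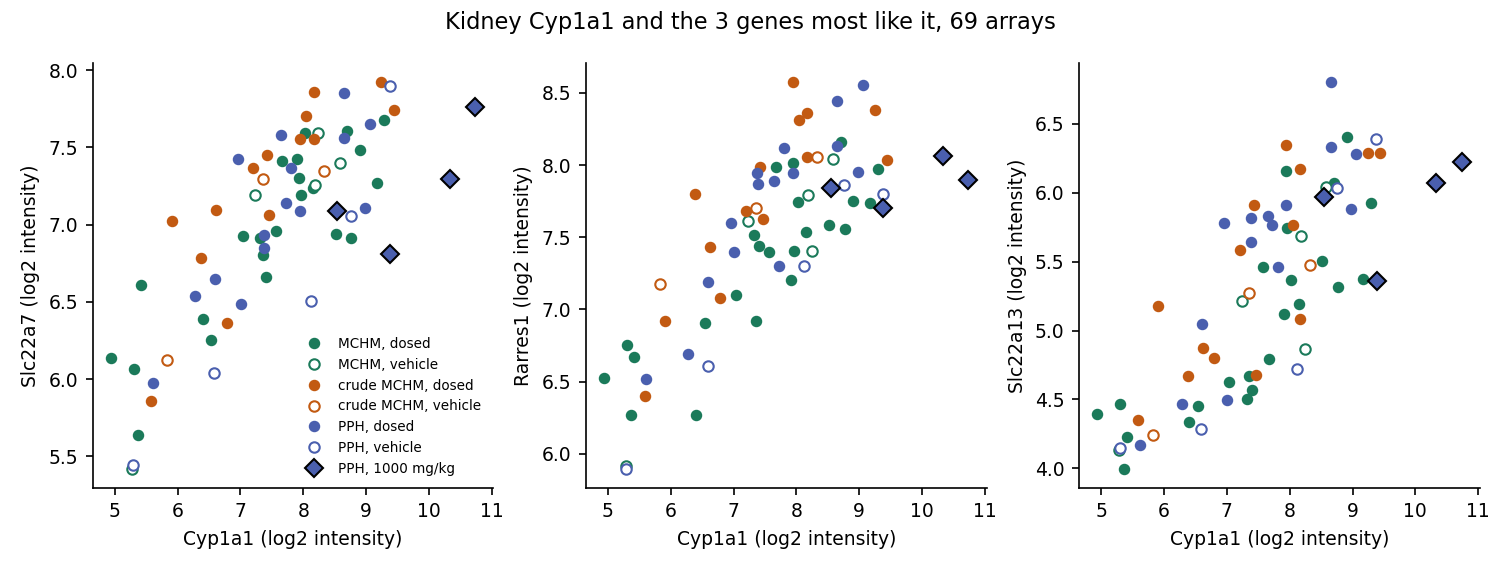
Kidney log2 intensity of Cyp1a1 against Slc22a7, Rarres1 and Slc22a13, 1 point per array (69 arrays), with open circles for vehicle, filled circles for dosed rats and diamonds for 1000 mg/kg PPH. Each gene was on the whole higher where Cyp1a1 was higher (r between 0.80 and 0.81), with single kidneys off the trend. Of the 4 diamonds, 2 had more Cyp1a1 than any other kidney, and none had the highest value of its other gene.

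The 7 further genes described as AhR targets did not share 1 direction with kidney Cyp1a1: r was 0.74 for Nqo1, a quinone reductase, 0.55 for Cyp2s1, 0.28 for Selenbp1, -0.04 for Cyp2a1, -0.32 for Ugdh, -0.42 for Nfe2l2 and -0.56 for Xdh. Among markers of other cell types Krt19, an epithelial keratin, had 0.74, where Epcam and Krt7 of its list had 0.57 and -0.20. Kdr, the endothelial VEGF receptor, had -0.70, where the other endothelial markers Pecam1, Vwf and Tek had -0.21, 0.17 and 0.07. Among 5 proximal tubule markers r was -0.37 for Slc34a1, -0.16 for Lrp2, 0.02 for Cubn, -0.48 for Slc22a6 and -0.53 for Slc5a2, and these markers were bright on every kidney array. The part of tissue make-up in the Cyp1a1 spread was not tested.

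The same rats supplied both organs for 65 pairs of arrays. With set means removed, liver and kidney Cyp1a1 correlated with a Pearson r of 0.41 (permutation p = 0.00076) and a Spearman rho of 0.34 (permutation p = 0.00648), and r was 0.29 without the 2 livers farthest from the median. The relation was uneven between sets, with r = 0.25 (n = 27) for MCHM, 0.18 (n = 16) for crude MCHM and 0.66 (n = 22) for PPH. The other 5 genes, for which r ran from -0.13 to 0.29, and Cyp1a1 made 6 relations, and these p were not adjusted. The median r of 11008 genes was 0.08, and 95.75% of them had a lower r than Cyp1a1. Dose differences were left in, and the rat brightest in Cyp1a1 in both organs had received 1000 mg/kg PPH.

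Cyp1a2 in liver was bright and varied little. Its 81 arrays lay between 12.41 and 13.06, brighter than 99.5% of probe sets, and its residual SD of 0.10, 0.10 and 0.11 was exceeded by that of most genes: between 14.7% and 21.9% of genes had a lower one, depending on the set. At 500 mg/kg crude MCHM the livers read 12.74, 13.06, 12.87 and 12.82, against 12.66, 12.49, 12.59 and 12.68 with vehicle. These groups did not overlap, with an exact two-sided permutation p of 0.0286, the smallest that 4 and 4 arrays can give. How many other genes had groups apart was not counted, and 1524 of 11402 genes had an unadjusted limma p under 0.05 here. The difference of 0.27 (95% interval 0.12 to 0.42), a 1.20-fold change, had a limma adjusted p of 0.0883, where 0.675% of all genes were called.

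This difference was the nearest to a call of any member and dose, and with array weights it was 0.30 and passed (limma adjusted p = 0.0266). The next lower dose, 300 mg/kg, read 12.68, 12.71, 12.71 and 12.60, and the trend over doses was 0.03 per step (limma adjusted p = 0.131). Of the livers at 500 mg/kg MCHM, 1 read 13.03 and the other 3 read 12.64, 12.69 and 12.62, against 12.69, 12.67, 12.63, 12.70 and 12.69 with vehicle, a difference of 0.07 (-0.08 to 0.22). At 1000 mg/kg PPH the livers read 12.71, 12.62, 12.59 and 12.60, inside the vehicle range of 12.46 to 12.71, a difference of 0.02 (-0.14 to 0.18).

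**Figure D4:**
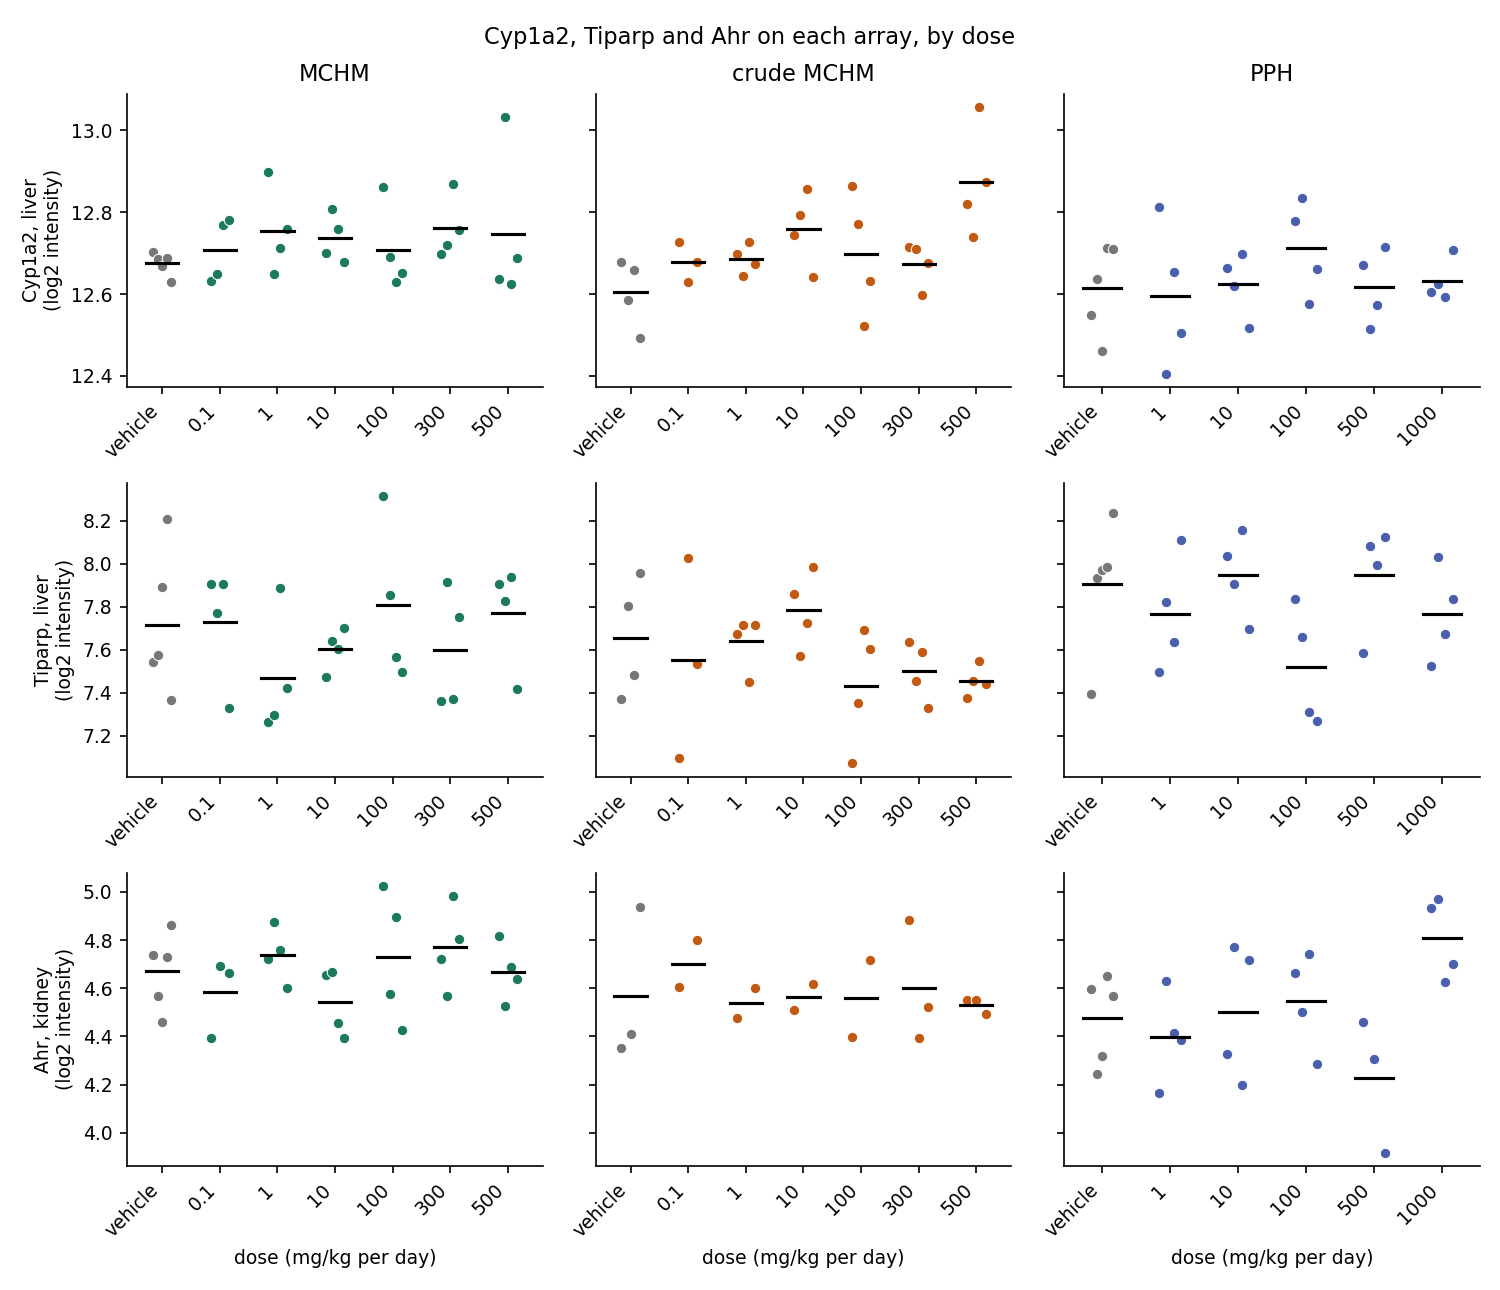
Log2 intensity of Cyp1a2 in liver, Tiparp in liver and Ahr in kidney on each array by daily dose (vehicle in grey, at the left of each panel), with bars at group means. The 4 livers at 500 mg/kg crude MCHM lay above their vehicle livers in Cyp1a2, and the 4 kidneys at 1000 mg/kg PPH had the highest group mean in Ahr.

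Over all 17 dose groups the liver Cyp1a2 changes ran from -0.02 to 0.27 and were above 0 in 16, and no 95% interval reached above a 1.34-fold rise. All doses of a chemical share 1 vehicle group, so these signs are not independent, and such signs were not counted for all genes. The group means spanned 0.28 log2 units, from 12.59 at 1 mg/kg PPH to 12.87 at 500 mg/kg crude MCHM, and these 2 groups overlapped by array. Of the 19 steps between neighbours in that order, 1 was larger than their pooled SD.

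Kidney Cyp1a2 exceeded the threshold on 6 of 69 arrays and passed the filter for a dose test in the MCHM set only, where at 500 mg/kg it read 4.77, 4.01, 4.49 and 4.19, against 5.04, 4.70, 4.44, 4.14 and 4.66 with vehicle. Its smallest unadjusted p there, 0.0197, was at 10 mg/kg, for a difference of -0.44 (limma adjusted p = 0.77). The kidney genes most like it were Ahsg (r = 0.52), Hp (r = 0.50) and Serpina1 (r = 0.47), which encode plasma proteins made by the liver.

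Hepatocyte markers stood beside kidney Cyp1a2. The 2 kidneys with the highest summed intensity of 5 hepatocyte markers, 1 at 1 mg/kg crude MCHM and 1 vehicle kidney of the MCHM set, had albumin (Alb) values of 11.06 and 10.19 and the 2 highest kidney Cyp1a2 values, 5.23 and 5.04. The next kidney by this sum, at 10 mg/kg PPH with Alb at 6.84, ranked 43 in Cyp1a2, at 4.16. The summed linear intensity of the 5 markers ran from 151 to 207 in kidneys at 500 mg/kg MCHM, against 146 to 1789 in their vehicle kidneys, and had a median of 170 over all 69. Their part in the kidney Cyp1a2 values was not tested.

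Cyp1b1 was dim. Depending on the set, between 66.5% and 91.3% of genes in liver and between 58.3% and 75.5% in kidney had a lower residual SD than Cyp1b1. Its liver arrays lay between 4.77 and 5.88 and its kidney arrays between 4.69 and 5.47, above the threshold on every array. Across the 17 dose groups its changes ran from -0.17 to 0.17 in liver and from -0.17 to 0.22 in kidney, with no 95% interval above a 1.46-fold rise in either organ.

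Tiparp, a quick responder to AhR ligands, was well above the threshold in both organs. At 500 mg/kg crude MCHM the livers read 7.45, 7.55, 7.44 and 7.37, against 7.48, 7.96, 7.80 and 7.37 with vehicle, and the kidneys read 7.99, 7.93 and 8.20, against 8.19, 8.56 and 8.25. Both pairs overlapped, with differences of -0.20 (95% interval -0.52 to 0.13) and -0.29 (-0.61 to 0.02; limma adjusted p = 0.427). At 1000 mg/kg PPH the differences were -0.14 in liver and -0.15 in kidney, and at 500 mg/kg MCHM 0.06 and 0.10.

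Tiparp had differences of -0.38 at 100 mg/kg PPH in liver and of -0.20 and -0.24 at 10 and 100 mg/kg PPH in kidney, for which limma's adjusted p was 0.417, 0.595 and 0.613, and the unadjusted p was under 0.05 each time. Over the 17 dose groups the intervals allowed at most a 1.37-fold rise in liver and a 1.35-fold rise in kidney. A dimmer probe set of the gene followed the first in liver (r = 0.78 over 81 arrays) but not in kidney (r = -0.01 over 69). In kidney at 500 mg/kg crude MCHM the dimmer probe set averaged 6.91 ± 0.26, against 5.84 ± 0.86 with vehicle (SD, n = 3 each), opposite in sign to the first.

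Across livers Tiparp moved with Bhlhe40 (r = 0.86), which encodes a transcription factor tied to the circadian clock, Zfp455l1 (r = 0.82) and Ell (r = 0.81), an elongation factor gene. Across kidneys its closest genes were Irf5 (r = 0.75), Slc29a1 (r = 0.70) and Shpk (r = 0.69). Kidney Tiparp and kidney Cyp1a1 had r = -0.52, and in liver the 2 genes had r = -0.05.

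Ahr, the receptor, was dim in both organs, and its 2 probe sets did not track each other (r = -0.10 over 81 livers and 0.02 over 69 kidneys). In kidney at 1000 mg/kg PPH it read 4.70, 4.63, 4.93 and 4.97, against 4.60, 4.32, 4.65, 4.24 and 4.57 with vehicle. The highest vehicle kidney overlapped the lowest dosed one, and the difference of 0.33 (95% interval 0.05 to 0.62) had a limma adjusted p of 0.244. On the other kidney probe set, which exceeded the threshold on 0 of 69 arrays, the difference was 0.02.

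In liver Ahr at 1000 mg/kg PPH differed by 0.35 (-0.11 to 0.81) on its brighter probe set, and by -0.20 on the other (4.75 ± 0.12 against 4.95 ± 0.08, SD, n = 4 and 5). No direction for Ahr in liver can be taken from probe sets that differ in sign. The liver differences at 500 mg/kg were -0.04 for MCHM and -0.06 for crude MCHM, and the kidney differences were -0.00438 for MCHM and -0.04 for crude MCHM.

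The 3 chemicals were compared with each other at 500 mg/kg, as the differences of their changes from vehicle, in 3 pairs per tissue. Limma called 0 of 15 member tests in liver and 0 of 15 in kidney with p adjusted over genes and pairs, where it called 0% of all genes in each pair. In liver 3 of 15 had an unadjusted p under 0.05, where 6.78% of all gene tests did, all against PPH: Cyp1a1 for MCHM minus PPH (0.69, 95% interval 0.10 to 1.28) and crude MCHM minus PPH (0.63, 0.03 to 1.24), and Cyp1a2 for crude MCHM minus PPH (0.26, 0.06 to 0.47). In kidney there was 1 of 15, where 10.1% of all gene tests did, Tiparp for crude MCHM minus MCHM (-0.39, -0.73 to -0.04). Both liver Cyp1a1 differences use the same PPH arrays and include a lower value with PPH. At 500 mg/kg PPH liver Cyp1a1 read 4.90, 4.77, 5.18 and 4.76, against a vehicle mean of 5.21.

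MCHM is an alcohol on a saturated ring and PPH an ether with an aromatic phenyl ring. In liver Cyp1a1 the MCHM mixture and MCHM differed by -0.05 (crude MCHM minus MCHM), with a 95% interval of -0.66 to 0.55. For kidney Cyp1a1 the intervals of all 3 pairs spanned more than 4 log2 units, so likeness between the chemicals was not shown there.

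The responses of liver and kidney at the highest doses were compared on 1 probe set per gene, and limma called 0 of 15 member tests. All genes were called at 0% for MCHM, 0.12% for crude MCHM and 0.266% for PPH, and 2 of the 15 member tests had an unadjusted p under 0.05, near the 11.7% of all gene tests that did. Ahr differed by -0.53 (95% interval -0.82 to -0.25, limma adjusted p = 0.106) for PPH, and Cyp1a2 by 0.61 (0.26 to 0.95, limma adjusted p = 0.195) for crude MCHM. The Ahr value rests on a probe set that changed by -0.20 in liver and 0.33 in kidney. The brighter liver probe set of Ahr changed by 0.35, so a difference between the organs was not shown for this gene. The Cyp1a2 value includes a kidney change of -0.34 among intensities below the threshold, so it is not a measured difference of responses. Cyp1a1 differed by -1.86 (-3.74 to 0.02) for PPH.

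Other genes of the AhR pathway were followed as fixed lists. Of 9 further genes described as AhR targets, 7 had a probe set of their own, and 6 in liver and 7 in kidney were tested. At 1000 mg/kg PPH in liver, where limma called 1.75% of all genes, 2 of 6 rose, 0 fell and the median change was 0.28. These were Nqo1, at 8.62 ± 0.15 against 7.29 ± 0.27 with vehicle (SD, n = 4 and 5), a change of 1.33 ± 0.13 (SE), and Ugdh, which makes UDP-glucuronic acid, at 11.31 ± 0.14 against 10.93 ± 0.16, a change of 0.38 ± 0.09 (SE; limma adjusted p = 0.0233).

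Both genes are also described as targets of Nrf2, the oxidative stress factor. Nqo1 had risen by 0.91 ± 0.13 (SE; limma adjusted p = 0.00203) at 500 mg/kg PPH in liver, and it was the one list gene called in the PPH liver trend. In liver at 500 mg/kg limma called 0 of 6 for MCHM (0 with an unadjusted p under 0.05) and 0 of 6 for crude MCHM (3 such genes). Such a p was reached there by 1516 of all 11335 genes for MCHM and by 1524 of 11402 for crude MCHM. In kidney at the highest doses limma called 0 of 7 for each chemical (1 such gene for MCHM, 1 for crude MCHM and 3 for PPH). Of all kidney genes, 1047 of 11277, 1406 of 11216 and 1739 of 11264 reached it, in the same order of chemicals. Of 8 genes for receptor partners such as Arnt and the chaperones, 6 had a probe set and 5 were tested (4 in the PPH kidney set), since Ahrr, the AhR repressor, exceeded the threshold on no array. Limma called 0 at any highest dose (2 with an unadjusted p under 0.05 for crude MCHM in each organ, 0 for the other chemicals). For crude MCHM the counts over all genes are those given above. Ptges3, the p23 co-chaperone, was called in the crude MCHM liver trend (0.03 per dose step, limma adjusted p = 0.0302), where 1.91% of all genes were called.

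Genes under other receptors changed on the same liver arrays. Cyp3a23-3a1 and Ces2c, targets of the xenobiotic receptors PXR and CAR, rose with all 3 chemicals. Cyp3a23-3a1 averaged 13.08 ± 0.07 against 12.50 ± 0.13 for MCHM, 13.19 ± 0.09 against 12.55 ± 0.34 for crude MCHM and 13.04 ± 0.14 against 12.19 ± 0.21 for PPH (SD). Its changes of 0.58, 0.65 and 0.84 had limma adjusted p of 0.00272, 0.0158 and 0.00181.

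Of 4 Nrf2 targets, 3 rose with 1000 mg/kg PPH, where 1.75% of all genes were called. These were Gstt3, a glutathione transferase (1.88 ± 0.15, SE), Akr7a3, an aldehyde reductase (1.26 ± 0.20), and Gsr, glutathione reductase (0.72 ± 0.12). Limma also called 1 of the 4 at 500 mg/kg crude MCHM, and 0 at 500 mg/kg MCHM. The PPAR-alpha targets Cyp4a1 and Ehhadh, of fatty acid oxidation, rose by 0.69 and 0.64 with MCHM and by 0.79 and 0.74 with crude MCHM. At 1000 mg/kg PPH in liver neither was called, though both had an unadjusted limma p under 0.05. In kidney Ehhadh rose by 0.71 ± 0.08 (SE) at 1000 mg/kg PPH.

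**Figure D5:**
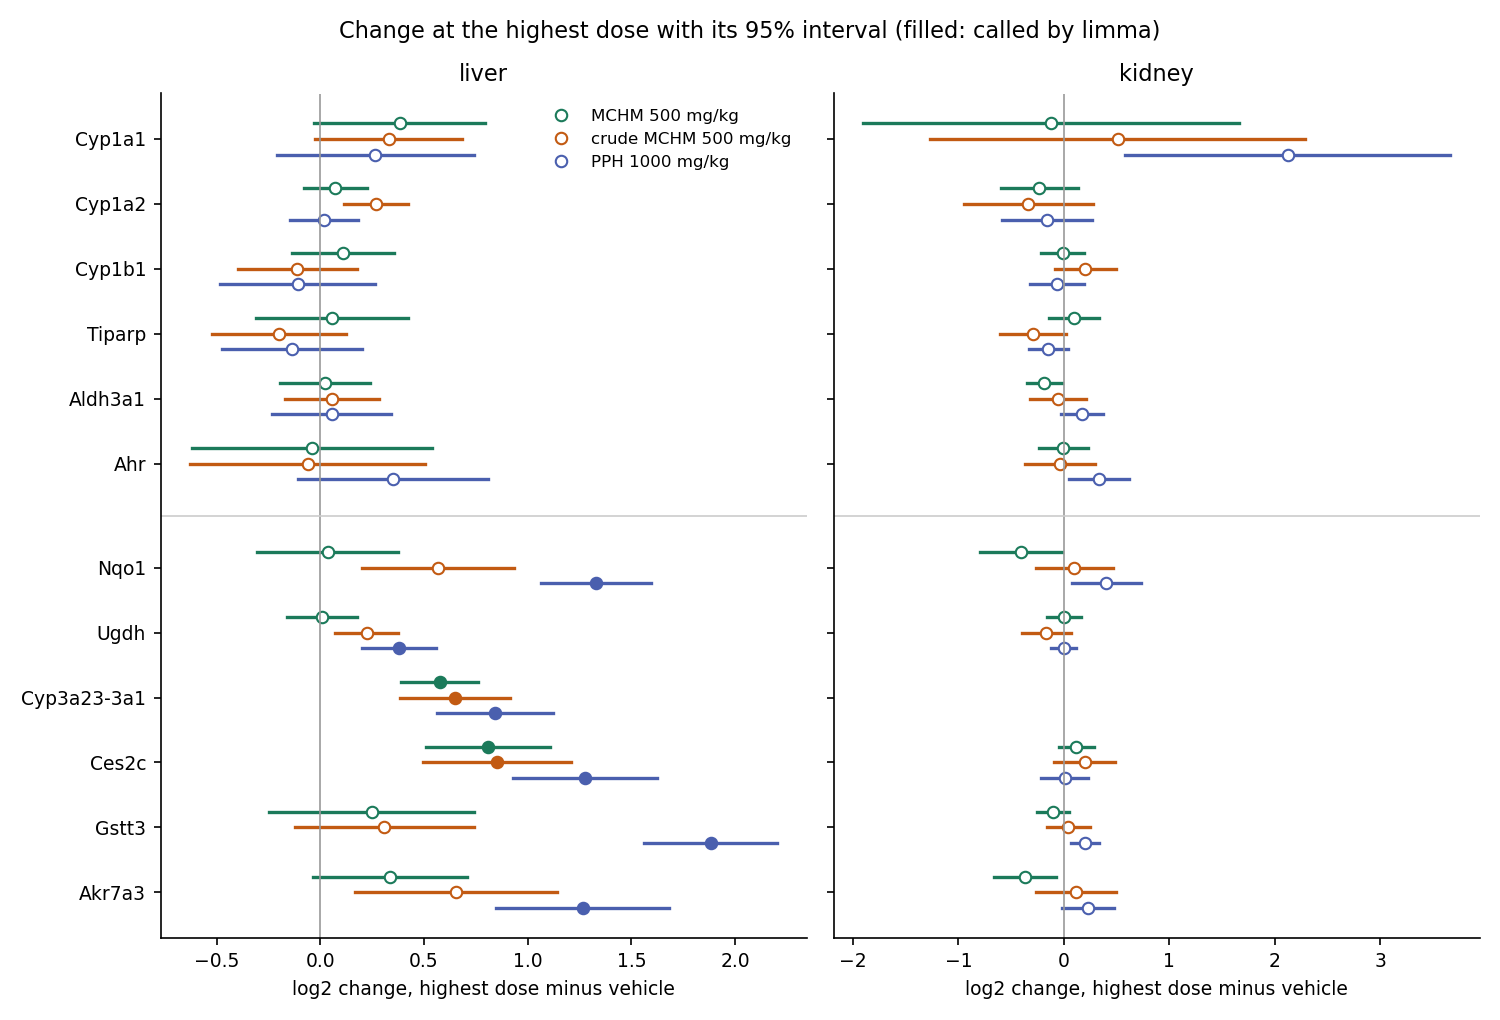
Log2 change at the highest dose minus vehicle with its 95% limma interval, in liver (left) and kidney (right), with filled points where limma called the gene. Above the line are the 6 members, fitted without the filter, and below it 6 genes picked from the fixed lists. Of these, Nqo1 and Ugdh are further genes described as AhR targets, and Cyp3a23-3a1, Ces2c, Gstt3 and Akr7a3 are targets of other receptors. The intervals of the 6 members held no filled point, and liver Cyp1a2 had the narrowest ones and kidney Cyp1a1 the widest. In liver Nqo1 and Ugdh were filled for PPH, and Cyp3a23-3a1 and Ces2c for all 3 chemicals.

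The 95% intervals, fitted here without the intensity filter, give the size of change that these groups could show. For liver Cyp1a2 and Tiparp, and for Cyp1b1 in both organs, the intervals at every dose lay below a doubling, and for liver Cyp1a1 the highest bound was 1.74-fold. These are bounds on array intensity. Liver Cyp1a1 and Cyp1b1 were dim and liver Cyp1a2 was brighter than 99.5% of probe sets. How closely intensity followed transcript amount at such levels was not measured. For kidney Cyp1a1 the highest bound over the 17 dose groups was 12.7-fold, and a change below several-fold was not detectable with these groups.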

How the data were processed

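Affymetrix Rat Genome 230 2.0 arrays were made from total RNA of liver and kidney. The authors' deposited log2 values were produced with RMA, per the submitters' processing notes, and its version is not given in the sources used here. Of 31099 probe sets, 20832 carried 1 gene symbol, updated through RefSeq's gene table, 436 carried several and 9831 were unnamed here. Probe sets with several symbols were not used, so some genes of the fixed lists had no value.

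A kidney array of the lowest MCHM dose (replicate 13) was not used: its values are shifted against the probe set rows, and its median correlation with its set was 0.40, where all others had at least 0.987. The vehicle arrays of the same chemical and organ served as the baseline for every dose. The gap between the 3' and 5' beta-actin probe sets, a sign of RNA quality, differed between the chemical sets, and a fit with it as a covariate is among the alternatives.

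Group means models were fitted per tissue and chemical with limma 3.58.1 in R 4.3.3 (lmFit, eBayes). Trends used the rank of the dose. Chemicals were compared in 1 fit per tissue, and organs in 1 fit per chemical. The script was tested on simulated data. Permutation tests used scipy 1.17.1, with 100000 resamples for correlations. The number of arrays limits the precision. The labels number the rats, and a shared number was read as the same rat in both organs: over the 65 rats, organ deviations correlated with a median r of 0.145, above 0 in 63. The p-values measure the spread between arrays.

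Named were the 6 members, called genes of the fixed lists, comparison genes and 3 genes of like pattern per member, of which those for Cyp1a1, Cyp1a2 and Tiparp are printed in part. Kidney markers beside Cyp1a1 were chosen after their values were seen. Members and lists were chosen with earlier results of these data known.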

Additional observations from a re-analysis of the deposited data

Results flagged for a closer look

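Within 180 groups of 4 or 5 arrays of a member, 7 held 1 array that stood apart from its group by Dixon's test at the 95% level, and chance flags about 1 group in 20. In liver these were Cyp1a1 at 100 mg/kg crude MCHM (1 array at 4.91, the others between 5.29 and 5.34), Cyp1a1 at 100 mg/kg PPH (1 array at 4.48, the others between 5.08 and 5.09) and Cyp1b1 at 0.1 mg/kg MCHM (1 array at 4.90, the others between 5.14 and 5.19). Liver Tiparp at 1 mg/kg crude MCHM had 1 array at 7.45, with the others between 7.68 and 7.72. Liver Cyp1a2 at 500 mg/kg MCHM had 1 array at 13.03, with the others between 12.62 and 12.69. The 2 others were kidney Aldh3a1 values below the detection threshold, 3.45 at 500 mg/kg MCHM and 3.01 at 1 mg/kg PPH.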

How the results depend on the processing

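The counts of members called were recomputed without the filter, with the mean of all probe sets, after a further quantile normalization, with array weights, with all chemicals in 1 fit, with each array left out and, chosen after seeing the data, with a beta-actin covariate and with the left-out column included. All recomputed counts but 1 stayed within 1.5 times the reported one. The exception was array weights for crude MCHM 500 mg/kg in liver, with 1 member called, Cyp1a2 (0.30, limma adjusted p = 0.0266). For this Cyp1a2 difference the limma adjusted p ran from 0.0523 to 0.121 under the other settings that kept every array. With 1 array of the set left out it ran from 0.0586 to 0.258. The cause of the exception was not tested. Leaving out 1 array gave 0 for every dose, trend, chemical and tissue-response count, and 4 to 5 for the level in vehicle rats. Among 171 recomputed changes of single members, 168 kept their side of the threshold within the vehicle SD. The other 2, besides that Cyp1a2 value, were liver Cyp1a2 at 500 mg/kg MCHM with array weights (0.03) and kidney Tiparp at 500 mg/kg crude MCHM with the mean of both probe sets (0.39, against -0.29).

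With the rat number as a replicate block, 0 members were called for the tissue difference of any response (Ahr with PPH, limma adjusted p = 0.0734), and 4 of 5 for the level in vehicle rats, where Cyp1b1 had a limma adjusted p of 0.0596. Dim signals limit Aldh3a1 and kidney Cyp1a2.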
